A study of Homo sapiens with 4 samples.

Results

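The NF-κB transcription factor subunits NFKB1, NFKB2, RELA and RELB, their feedback inhibitors NFKBIA, NFKBIE, NFKBIZ and TNFAIP3, and the target genes BIRC3 and ICAM1 were taken by gene symbol, and each symbol named 1 row of the deposited count table, so that 10 of 61806 genes are described here. RNA with a poly(A) tail was sequenced from MDA-MB-231, a breast cancer line, and MDA-MB-435, a melanoma line, both of wild type genotype by their labels, each left as a control or given CPYPP, an inhibitor of the DOCK guanine nucleotide exchange factors, for 6 h at 10 µM. There were 4 libraries, 1 for each of the 4 conditions, with 17196385 to 22663954 reads counted on genes. The dose comes from a treatment description that names MDA-MB-435 alone, although it is attached to the samples of both lines, and what the control cells received is not stated in it.

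NF-κB proteins bind DNA as pairs of subunits. In resting cells the IκB proteins hold these pairs in the cytoplasm until the IKK kinase complex marks IκB for destruction, after which the freed pairs enter the nucleus and switch on genes of inflammation, adhesion and survival. Several of those genes encode the pathway's own inhibitors and subunits, so their mRNAs are commonly read as a feedback response. In RNA from whole cultures, fewer cells of a type and less RNA per cell cannot be told apart.

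Promoter sequence is shown for NFKBIA and NFKBIZ, which had the highest folds of the 10 genes in the melanoma line, and for BIRC3, the target gene with the most counts, which was lower in MDA-MB-231. They are RefSeq sequences of build GRCh38.p14, written 5′ to 3′ on the strand of the gene, and capitals mark matches to the κB consensus of 10 bases. The NFKBIA stretch is chr14:35404750-35404999 on the minus strand and the BIRC3 stretch is chr11:102317234-102317449 on the plus strand. Of the NFKBIZ promoter, chr3:101827757-101827786 on the plus strand is given, which lies inside the span of the neighbouring gene NXPE3.
NFKBIA: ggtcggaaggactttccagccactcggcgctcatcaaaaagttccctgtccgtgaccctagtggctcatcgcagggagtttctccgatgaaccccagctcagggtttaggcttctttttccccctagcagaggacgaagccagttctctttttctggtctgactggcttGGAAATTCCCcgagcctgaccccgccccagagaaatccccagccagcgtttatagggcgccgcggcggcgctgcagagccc
NFKBIZ: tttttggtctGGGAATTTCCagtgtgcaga
BIRC3: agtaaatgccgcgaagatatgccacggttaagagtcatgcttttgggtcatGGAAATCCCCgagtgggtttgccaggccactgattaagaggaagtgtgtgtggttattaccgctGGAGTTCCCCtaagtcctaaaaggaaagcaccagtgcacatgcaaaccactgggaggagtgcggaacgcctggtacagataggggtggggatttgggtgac

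The match lay 81 bases before the RefSeq start site in NFKBIA, 223 bases before it in NFKBIZ, and 199 and 135 bases before it in BIRC3. For BIRC3 this start site lies past the end of the printed stretch, since its window ended at chr11:102317483. Promoter windows were found for 8 of the 10 genes, and the windows of RELB and NFKBIE were not analysed here. Searched on both strands in the 250 bases before each start site, the consensus was present for 6 of these 8 genes, namely NFKB1, NFKB2, NFKBIA, NFKBIZ, TNFAIP3 and BIRC3, and these letters were not in the windows of RELA and ICAM1. Sites that depart from this consensus were not searched for, so such sites may be present there. By window, 8 of 13 held the consensus, against 9.96% of the 35116 windows of all genes. The genes were chosen for their known place in the pathway, so this share does not test them. In MDA-MB-435, genes with a match included NFKBIA and NFKBIZ, which were higher with CPYPP, and TNFAIP3, which was lower.

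The levels that follow are normalised read counts in CPM, which are counts scaled to library size after TMM, and the fold of a gene is its level with CPYPP over its level in the control of the same line. Every interval of a fold is a 95% exact binomial interval (Clopper-Pearson) that covers counting error only, and with 1 library per condition no p-value was computed within a line. All of the 10 genes passed the filter of at least 10 counts in at least 1 library of each comparison, with 314 to 6111 counts in every library. The plot of the level in each library shows every value with its counting interval.

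**Figure D1:**
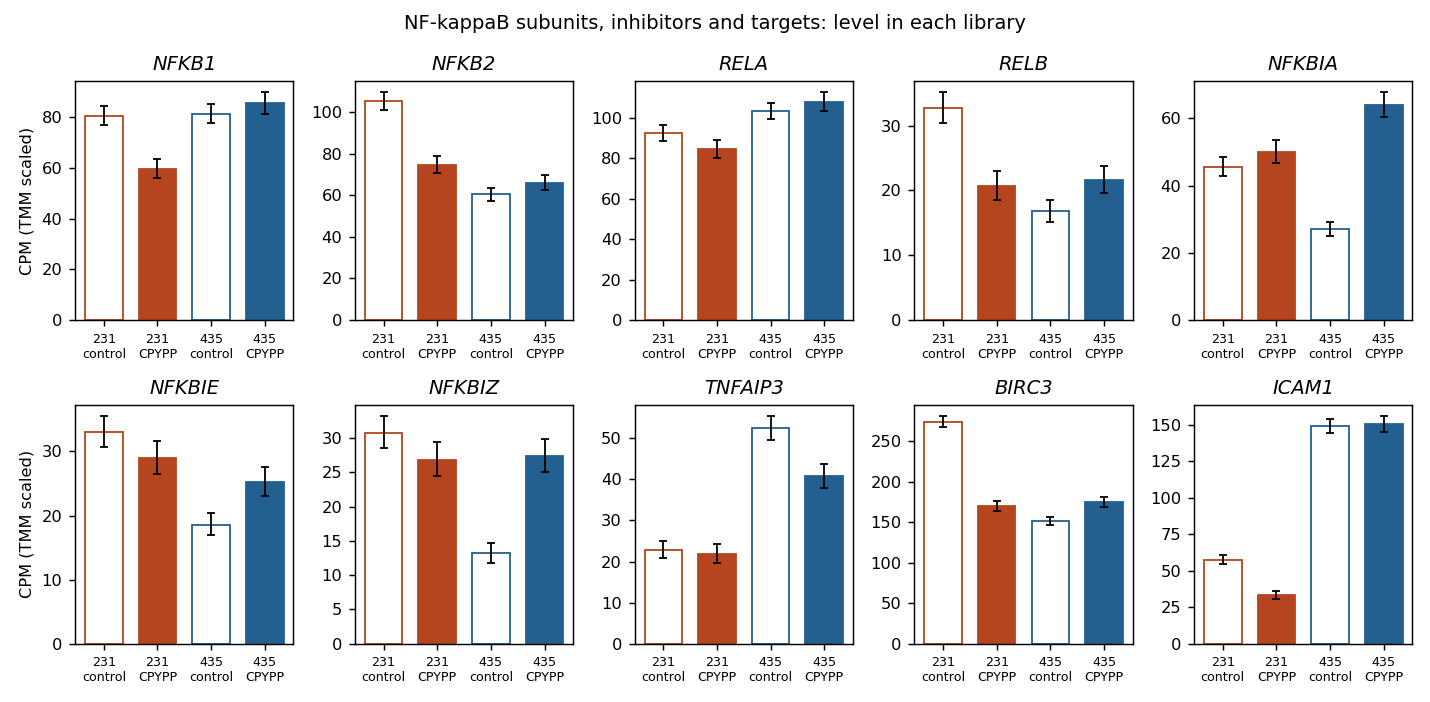
Normalised read counts in CPM after TMM scaling (vertical axes, from 0) of the 10 genes in MDA-MB-231 (red) and MDA-MB-435 (blue) control (open bars) and CPYPP (filled bars) libraries, with 95% Poisson intervals of the counts as error bars. NFKBIA goes from 27.0 to 64.0 in MDA-MB-435, while BIRC3 goes from 273.9 to 169.8 in MDA-MB-231.

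The subunit genes were all lower with CPYPP in MDA-MB-231, and in the melanoma line their folds were between 1.04 and 1.29. NFKB1 (chr4:102501330-102617302, plus strand), which encodes the precursor of a subunit that pairs with RELA, was at 80.4 in the MDA-MB-231 control and 59.5 with CPYPP, and at 81.2 and 85.5 in the melanoma line. Its fold was 0.740 in MDA-MB-231 (interval 0.684 to 0.800) and 1.05 in the melanoma line (0.984 to 1.12). The MDA-MB-231 CPYPP library thus stood below the other 3, which lay close together. NFKB2 (chr10:102394110-102402524, plus strand), the precursor gene of the non-canonical pathway, was at 105.2 and 74.6 in MDA-MB-231 and at 60.5 and 66.0 in the melanoma line. Its folds were 0.709 (0.662 to 0.760) and 1.09 (1.01 to 1.18), so the highest library of this gene was the MDA-MB-231 control.

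RELA (chr11:65653599-65663090, minus strand), whose protein holds the main transactivation domain of the canonical pathway, was the most even of the subunits, at 92.6 and 84.5 in MDA-MB-231 beside 103.4 and 107.8 in the melanoma line. The folds of RELA were 0.913 (0.853 to 0.977) and 1.04 (0.983 to 1.11). RELB (chr19:45001461-45038192, plus strand), the partner of the processed NFKB2 product, was at 32.7 and 20.7 in MDA-MB-231 and at 16.8 and 21.6 in the melanoma line. With folds of 0.633 (0.555 to 0.720) and 1.29 (1.12 to 1.48), RELB had the lowest fold of the 4 subunits in the first line and the highest in the second. After CPYPP the level of RELB was nearly the same in both lines, having differed in the controls.

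Among the inhibitors, NFKBIA and NFKBIZ were more than 2-fold higher with CPYPP in the melanoma line, and neither was in MDA-MB-231. NFKBIA (chr14:35401079-35404749, minus strand) encodes IκBα, the inhibitor that is destroyed and made anew in each round of activation. It was at 45.5 in the MDA-MB-231 control and 49.9 with CPYPP, a fold of 1.10 (1.00 to 1.20). In MDA-MB-435 it went from 27.0, the lowest of its 4 libraries, to 64.0, the highest, a fold of 2.37 (2.15 to 2.61). Of the 16527 genes tested in this line, 97.7% had a lower log2 fold than NFKBIA.

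NFKBIZ (chr3:101827991-101861022, plus strand) encodes IκBζ, a nuclear member of the family that also activates some targets. It was at 30.8 and 26.9 in MDA-MB-231, a fold of 0.872 (0.772 to 0.983), and at 13.2 and 27.4 in the melanoma line, a fold of 2.07 (1.80 to 2.39). The MDA-MB-435 control stood apart below the other 3 libraries. This interval reaches below 2, and with scaling to total counts the fold was 1.94, so the call was lost. NXPE3, which overlaps the first bases of NFKBIZ on the same strand, had 1683 and 1960 counts in MDA-MB-231 and 1758 and 3040 in the melanoma line, folds of 1.55 (1.45 to 1.66) and 2.15 (2.03 to 2.28), and its part in the NFKBIZ count was not tested.

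NFKBIE (chr6:44258166-44265788, minus strand), which encodes the cytoplasmic inhibitor IκBε, was at 33.0 and 28.97 in MDA-MB-231 and at 18.6 and 25.2 in the melanoma line. Its folds were 0.877 (0.781 to 0.985) and 1.36 (1.19 to 1.55), the same pattern as NFKBIZ with a smaller step. TNFAIP3 (chr6:137867214-137883314, plus strand) encodes a ubiquitin-editing enzyme that shuts off signalling above IKK, and it did not follow the other inhibitors. It was at 22.9 and 21.9 in MDA-MB-231, a fold of 0.957 (0.835 to 1.10), and at 52.4 and 40.8 in the melanoma line, a fold of 0.778 (0.710 to 0.851). TNFAIP3 was the only one of the 10 genes whose interval lay below 1 in MDA-MB-435. The opposite-strand gene WAKMAR2, which overlaps it, had 133 counts in the MDA-MB-435 control and 36 with CPYPP, and since the strand setting of the counting is not stated, reads from this pair may not be fully separated.

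The target genes were lower with CPYPP in MDA-MB-231, and their folds in the melanoma line were close to 1. BIRC3 (chr11:102317450-102339403, plus strand), a ubiquitin ligase that protects cells from death signalled through TNF receptors, had the most counts of the 10 genes in all 4 libraries. It was at 273.9 and 169.8 in MDA-MB-231, a fold of 0.620 (0.593 to 0.648), and at 151.7 and 175.2 in the melanoma line, a fold of 1.15 (1.10 to 1.21). ICAM1 (chr19:10271093-10286615, plus strand), an adhesion receptor for leukocytes, was at 57.6 and 33.3 in MDA-MB-231, a fold of 0.579 (0.523 to 0.640) and the lowest of the 10 genes. In MDA-MB-435 it was at 149.4 and 150.5, a fold of 1.01 (0.959 to 1.06). Both melanoma libraries were thus far above both of MDA-MB-231. The opposite-strand genes that overlap RELA, BIRC3 and ICAM1 had at most 78 counts in any library.

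**Figure D2:**
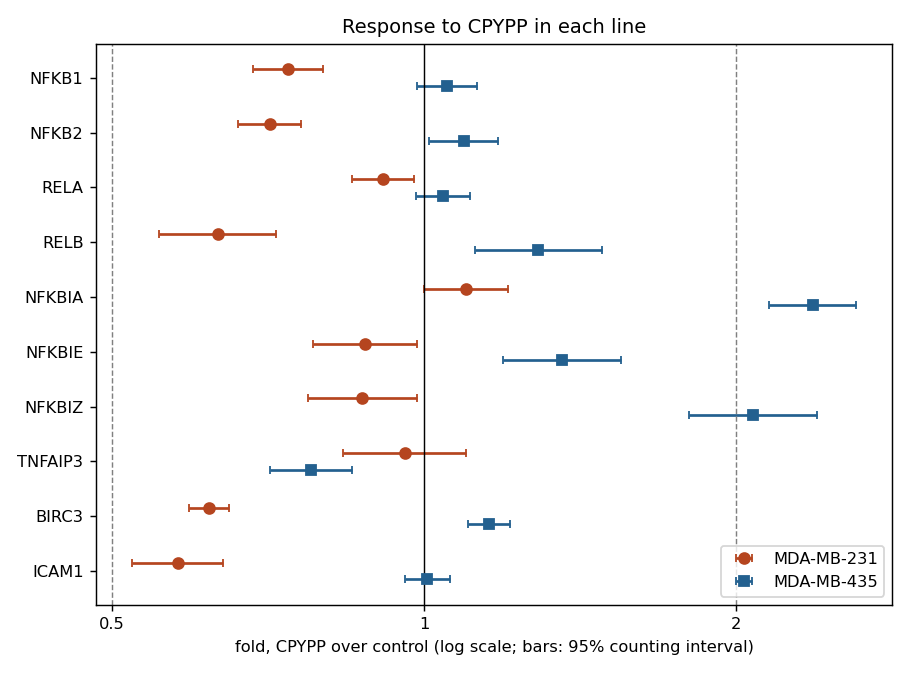
Fold of CPYPP over control (horizontal axis, log scale) of the 10 genes in MDA-MB-231 (red circles) and MDA-MB-435 (blue squares), with 95% counting intervals as bars and dashed lines at folds of 0.5 and 2. The circles lie left of the squares for 9 of the 10 genes, the exception being TNFAIP3, and NFKBIA and NFKBIZ alone pass 2.

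Counted over the 10 genes, 0 were past a fold of 2 in MDA-MB-231, where 5.02% of 16441 tested genes were past it upward and 5.69% downward. In MDA-MB-435, 2 of 10 were past it, both higher, where 3.62% of 16527 genes were higher and 10.7% were lower. By the counting interval alone, 8 of 10 lay wholly below 1 in MDA-MB-231 against 26.7% of all tested genes, and 1, NFKBIA, lay above against 23.9%. The lower bound of NFKBIA was 1.0006, barely clear of 1, and its fold there was 1.07 with total counts. With upper quartile scaling, chosen for this count after the data were seen, 5 lay below 1, as the intervals of RELA, NFKBIE and NFKBIZ then reached it. In MDA-MB-435, 6 of 10 lay above 1 against 25.3% of genes and 1 lay below against 29.7%. NFKB2, RELB, NFKBIE, NFKBIZ and BIRC3 were lower in the first line and higher in the second with both intervals clear of 1, which held for 5 of the 10 genes and for 3.49% of the 14262 genes tested in both lines. The same pattern was found in 4 of the 64 further pathway genes listed later that were tested in both lines, namely BIRC2, LTBR, SOD2 and TRAF2. The reverse pattern was found in 3 of the 64, namely TLR4, IL1RAP and MAP3K3, and its share over all genes was not counted. All of these pathway genes were looked up after the data were seen. Intervals of counting error are narrow for genes with this many counts, and the variation between cultures was not measured, so these counts describe the 4 libraries.

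The median log2 fold of the 10 genes was -0.32 in MDA-MB-231 and 0.17 in the melanoma line, beside -0.04 and -0.07 over all tested genes. For the subunits the medians were -0.47 and 0.10, for the inhibitors -0.13 and 0.75, and for the targets -0.74 and 0.11. Each group of genes therefore had a higher median in the melanoma line than in MDA-MB-231. Scaling changed some directions: the folds of NFKB1, RELA and ICAM1 in the melanoma line turned below 1 with total counts, and that of TNFAIP3 in MDA-MB-231 turned above 1 with upper quartile scaling.

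With the lines as a block in edgeR's quasi-likelihood test, 0 of the 10 genes passed an adjusted p-value of 0.05. Over all 16801 genes, 5.04% rose and 3.58% fell at this threshold. The test measures the treatment against the difference between the responses of both lines, with each gene's spread drawn toward that of all genes. A gene whose response differs between the lines can therefore still have a small p-value. DESeq2's test also called 0. At an unadjusted p under 0.05 by edgeR there were 2 of the 10, NFKBIA and ICAM1, beside 3601 of the 16801 genes. NFKBIA came closest, with a log2 effect of 0.69 ± 0.21 (SE) and an adjusted p of 0.0551 by edgeR. It was higher with CPYPP in 2 of 2 lines, but in MDA-MB-231 its fold was 1.10 (1.00 to 1.20). The call for NFKBIA depended on the settings, since the adjusted p by edgeR was 0.0211 with DESeq2 size factors, 0.0242 with total counts and 0.000679 with no filter on low counts beyond 1, while DESeq2's own test gave 0.156 and the fit without the block gave 1.00. ICAM1 had a log2 effect of -0.37 ± 0.16 (SE) and an adjusted p of 0.197 by edgeR, and it passed with total counts alone, at 0.0432. The other 8 genes had adjusted p-values by edgeR from 0.346 for NFKBIZ to 0.919 for RELA.

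The lines differed in these genes without treatment as well. Set as the melanoma line over MDA-MB-231 among the controls, ICAM1 was at 2.59 (2.43 to 2.77), TNFAIP3 at 2.29 (2.06 to 2.54) and NFKBIZ at 0.428 (0.373 to 0.490), so that 2 of 10 genes were past a fold of 2 upward and 1 downward, beside 23.7% and 21.8% of 18269 tested genes. NFKB2, RELB, NFKBIA, NFKBIE and BIRC3 had ratios from 0.513 for RELB to 0.594 for NFKBIA, all lower in MDA-MB-435. NFKB1 and RELA differed least, at 1.01 (0.947 to 1.08) and 1.12 (1.05 to 1.18).

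Between the CPYPP libraries, the 6 genes that had been lower in the MDA-MB-435 control had ratios from 0.871 for NFKBIE to 1.28 for NFKBIA. NFKBIZ was at 1.02 (0.896 to 1.16), BIRC3 at 1.03 (0.981 to 1.09) and RELB at 1.05 (0.904 to 1.21), and NFKBIA had passed to the other side, at 1.28 (1.17 to 1.40). ICAM1 was the exception in size, since its ratio went from 2.59 in the controls to 4.51 (4.12 to 4.95), and it was the 1 gene of the 10 past a fold of 2 there, beside 20.6% of 17054 tested genes upward and 22.7% downward. The median absolute log2 ratio between the lines was 0.84 for the 10 genes in the controls and 0.28 in the CPYPP libraries, and 7 of 10 were closer with CPYPP. Over 16617 genes the medians were 0.81 and 0.81, and 54.2% were closer. These ratios come from the same 4 libraries as the folds within the lines and add no separate measurement.

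**Figure D3:**
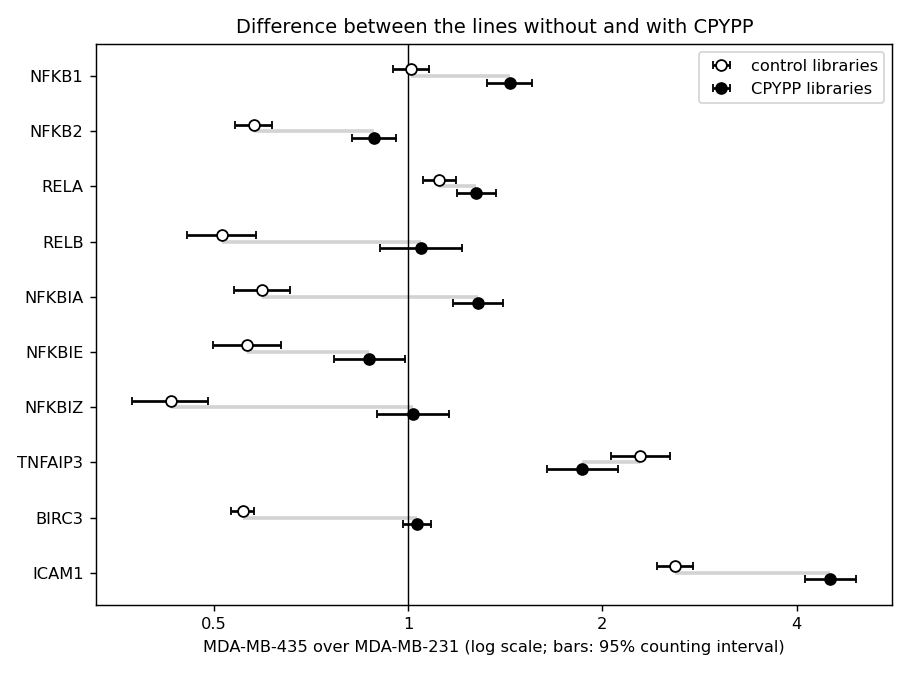
Ratio of MDA-MB-435 to MDA-MB-231 (horizontal axis, log scale) of the 10 genes in the control libraries (open circles) and in the CPYPP libraries (filled circles), with 95% counting intervals as bars and a grey line joining each pair. RELB, NFKBIZ and BIRC3 move to a ratio near 1, while ICAM1 moves from 2.59 to 4.51.

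To compare genes with each other, levels were divided by exon length, giving FPKM (reads per kilobase of exon, per library total after TMM scaling). These lengths are the exonic sizes deposited with the counts. Which transcripts the cells made was not tested, so the order between genes depends on these lengths. In the MDA-MB-231 control BIRC3 was first at 36.4 FPKM and TNFAIP3 last at 3.58 FPKM, whereas in the melanoma control ICAM1 was first at 43.3 FPKM and NFKBIZ last at 2.24 FPKM. NFKB2, RELA and ICAM1 were neighbours in the MDA-MB-231 control at 18.8, 17.0 and 16.7 FPKM, and with no replicate their order was not tested. With CPYPP, NFKBIA moved from 5th to 3rd of the 10 genes in MDA-MB-231, at 14.7 FPKM, and from 6th to 4th in the melanoma line, from 7.96 to 18.9 FPKM. NFKBIA thus stood at 0.950 of the RELA level with CPYPP in MDA-MB-231 and 0.955 in the melanoma line, from 0.790 and 0.420 in the controls.

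Within the summed FPKM of the 5 subunit genes, REL included, RELA held 32.5% in the MDA-MB-231 control and 46.1% in the melanoma control, and NFKB2 held 36.0% and 26.4%. The shares depend on exon lengths of 15679 bases for NFKB1 and 17129 for REL, beside 5457 for RELA. Before division by length, NFKB1 was at 80.4 CPM and RELA at 92.6 CPM in the MDA-MB-231 control. REL, the subunit best known from lymphocytes, held at most 1.69%. The sum went from 52.3 to 40.2 FPKM with CPYPP in MDA-MB-231 and from 41.1 to 45.0 FPKM in the melanoma line, and RELA became the largest share in MDA-MB-231, at 38.6%.

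Around these genes, 89 further genes of the pathway were listed, of which 79 were tested in MDA-MB-231 and 66 in the melanoma line. Past a fold of 2 the breast cancer line had 2 higher and 9 lower, while the melanoma line had 5 higher and 7 lower, beside 5.02% and 5.69% of all tested genes in the former and 3.62% and 10.7% in the latter. Their median log2 folds were -0.05 and 0.09. In the common effect, 6 of 77 rose and 7 fell at an adjusted p under 0.05 by edgeR, beside 5.04% and 3.58% of all genes. For the IKK complex, the folds in MDA-MB-231 and the melanoma line were 0.947 and 0.992 for CHUK, 0.763 and 0.852 for IKBKB, and 1.31 and 1.30 for IKBKG, its scaffold subunit.

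BCL3, the nuclear IκB relative that binds the NFKB1 and NFKB2 products, went the other way from NFKBIZ in MDA-MB-435. It had 185 and 38 counts in MDA-MB-231 and 321 and 53 in the melanoma line, folds of 0.274 (0.188 to 0.390) and 0.206 (0.151 to 0.276), and fell in the common effect at an adjusted p of 0.000302 by edgeR. Among the other listed genes that fell in the common effect were the survival gene BCL2L1, with folds of 0.657 and 0.441, the early response gene IER3, at 0.542 and 0.350, and PLAU, the urokinase gene, at 0.460 and 0.369, with adjusted p-values from 7.45e-05 to 0.00125 by edgeR. TNFAIP2, named after its values were seen, also fell, at 0.504 and 0.829, with an adjusted p of 0.0218 by edgeR. The remaining falls, IL6 and CCL2, each had few counts in 1 line and so do not show a response of both. Rises were called in the common effect for TBK1, a kinase related to IKK, with folds of 1.19 and 2.11, and for OTULIN, which removes linear ubiquitin chains, at 1.40 and 2.03, with adjusted p-values of 0.0298 and 0.00495 by edgeR. The other rises were those of CXCL8 and of 3 genes not past a fold of 2 in either line, which are named after their values were seen. These were MAP3K14, the kinase that starts NFKB2 processing, at 1.504 and 1.79, and the receptor adaptors TRAF6, at 1.38 and 1.75, and TICAM1, at 1.58 and 1.47, with adjusted p-values of 0.0041, 0.0277 and 0.0251 by edgeR.

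Among the secreted products, CXCL8, a neutrophil chemokine, had 630 and 753 counts in MDA-MB-231 and 1520 and 8303 in the melanoma line, folds of 1.59 (1.43 to 1.77) and 6.80 (6.44 to 7.19). This was the largest fold of the listed genes in MDA-MB-435 and exceeded that of NFKBIA. IL6 was measured in MDA-MB-231 with 530 counts and 70 with CPYPP, a fold of 0.176 (0.135 to 0.226), and it had at most 1 count in the melanoma line. CCL2 was measured in the melanoma line with 920 counts and 115 with CPYPP, a fold of 0.156 (0.127 to 0.189), and it had at most 4 counts in MDA-MB-231. These cytokine genes, all known as NF-κB targets, did not share a direction.

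The other listed genes past a fold of 2 in either line had few counts. TNIP3 had 3 and 31 counts in MDA-MB-231, a ratio of 13.8 (4.30 to 70.4), and in the melanoma line IL1A had 3 and 10 counts, a ratio of 4.15 (1.07 to 23.5), and CXCL3 had 3 and 11, a ratio of 4.57 (1.21 to 25.5). In MDA-MB-231, CXCL3 had 14 and 22 counts, a fold of 2.09 (1.02 to 4.43). CXCL1 had 62 and 15 counts in MDA-MB-231, a fold of 0.322, and 10 and 0 in the melanoma line, at least 2.68-fold lower with the floor of 3 counts per library. In MDA-MB-231, LTB, LTA, IL1B, PTGS2 and TLR5 had folds from 0.351 for LTB to 0.473 for TLR5, with at most 93 counts and with intervals that spanned 1 for LTA and IL1B, and CSF2 in the melanoma line had 86 and 26 counts, a fold of 0.376 (0.233 to 0.590).

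**Figure D4:**
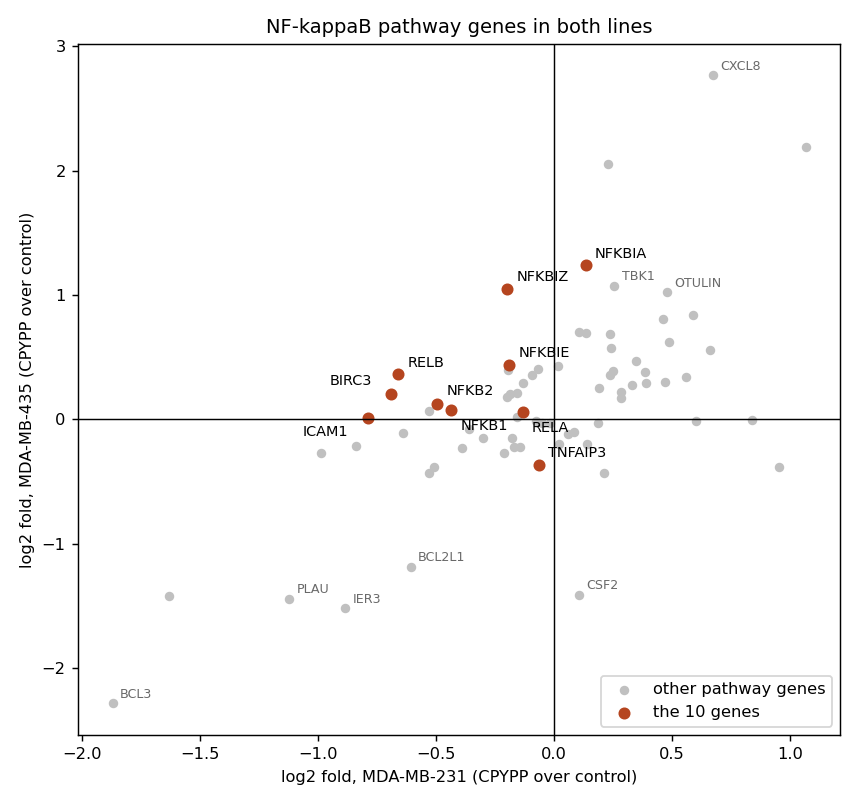
Log2 fold of CPYPP over control in MDA-MB-231 (horizontal axis) and in MDA-MB-435 (vertical axis) of the 10 genes (red) and of 64 further pathway genes tested in both lines (grey). BCL3, PLAU, IER3 and BCL2L1 lie low on both axes, while the 10 genes spread from -0.79 to 0.13 in MDA-MB-231 and from -0.36 to 1.24 in MDA-MB-435.

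The count table also carries GO annotation, in which 16 terms name NF-κB. The term with the most genes, positive regulation of I-kappaB kinase/NF-kappaB signaling, had a median log2 fold of -0.03 in MDA-MB-231, where 154 of its genes were tested, beside 0.02 in the melanoma line, where 155 were. For NIK/NF-kappaB signaling, with 8 tested genes, NFKB2, RELB and BIRC3 among them, the medians were -0.13 and 0.29. Other small terms had the opposite order, such as regulation of NIK/NF-kappaB signaling, with medians of -0.05 over 10 tested genes and -0.33 over 9, and NF-kappaB-inducing kinase activity, with 0.21 and -0.22 over 4.

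The gene with the largest summed change over both lines was NFKBIA, and the genes nearest to it in centred log2 level over the 4 libraries, among 14228 compared, were MYC, IFRD1, an unnamed gene with at most 13 counts, RP9P and TBK1. Their distances were between 0.088 and 0.15 on the log2 scale. MYC had folds of 1.09 and 2.18, IFRD1 1.07 and 2.55, and RP9P 1.16 and 2.10. With 4 libraries, such a likeness describes the libraries and was not tested.

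The lines were checked against markers of their type. SOX10, S100B and DCT had at most 3 counts in MDA-MB-231 and 464 to 3031 in the melanoma line, while KRT19 and EPCAM had 287 to 3953 counts in MDA-MB-231 and at most 4 in the melanoma line. The other breast epithelial markers were not absent from MDA-MB-435, where KRT18 had 5740 and 4077 counts, KRT7 625 and 391, and KRT8 522 and 310, and the 5 markers summed to 6893 and 4778 counts there beside 39853 and 26433 in the breast cancer line. Not all melanocyte markers were higher in the melanoma line. Its control over that of MDA-MB-231 was at 0.831 (0.773 to 0.894) for MITF, which was counted in all 4 libraries. For PMEL, with at most 34 counts in any library, this ratio was 0.359 (0.174 to 0.697). MLANA and TYR had at most 14 counts in any. Leukocyte markers summed to 14 to 52 counts per library over 5 genes. The summed count of the 7 melanocyte markers went from 6173 to 2762 in MDA-MB-435 with CPYPP, led by SOX10, from 3031 to 707. In MDA-MB-231 it went from 1628 to 737, nearly all of it MITF, from 1585 to 690. These counts are not scaled to library size, and the CPYPP libraries were the smaller ones. After TMM scaling the fold of SOX10 in MDA-MB-435 was 0.290 (0.267 to 0.315), and that of MITF in MDA-MB-231 was 0.580 (0.530 to 0.635). The part of these markers in the folds of the 10 genes was not tested.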

How the data were processed

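The authors deposited unnormalized counts of reads on genes for 61806 genes in 4 libraries. Per the labels' processing notes, cutadapt 1.9.1, HISAT2 2.2.1, HTSeq 0.6.1 and DESeq2 were used with build GRCh37.p13. The positions in the file are those of GRCh38, since 58241 of 58254 identifiers shared with GENCODE release 29, including all 10 genes described, overlap its positions. The strand setting is not given in the sources used here. Library totals ran from 17196385 to 22663954 counts, and intervals narrow as a gene's counts rise.

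Counts were scaled by TMM over the 4 libraries (edgeR 4.0.16, R 4.3.3) to CPM, and to FPKM by the exon lengths in the file. Folds set counts below 3 to 3, were taken for genes that reached 10 counts in 1 or both libraries, and were called past 2. The common effect of CPYPP came from edgeR's quasi-likelihood test, in which the line was a block (1 residual degree of freedom, biological coefficient of variation 0.121), with Benjamini-Hochberg adjustment, and DESeq2 1.42.0 as an alternative. The p-values by edgeR rest on the difference between the responses of the lines, not between cultures. In them each gene's spread is drawn toward a trend over all genes. Scripts were tested on simulated data. Named pathway genes were those past a fold of 2 in either line, up to 20, and CHUK, IKBKB and IKBKG. The 10 genes and the lists were chosen with earlier results of these data known. Alternatives concerned scaling, filters, thresholds and the block. Promoters were read from RefSeq, and proteins were not used here. The κB consensus is G, G, G, a purine, any 2 bases, 2 pyrimidines, C and C.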

Additional observations from a re-analysis of the deposited data

Results flagged for a closer look

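Genes were singled out where the fold of CPYPP over control lay below 1 in MDA-MB-231 and above 1 in MDA-MB-435 with both 95% counting intervals clear of 1. Given as the fold in MDA-MB-435 over the fold in MDA-MB-231, the values were 2.38 for NFKBIZ, 2.04 for RELB, 1.86 for BIRC3, 1.55 for NFKBIE and 1.54 for NFKB2. With 1 library per condition the difference between the lines was not tested for any of these genes. NFKB2 dropped out of this group with total counts, where its interval in MDA-MB-435 reached 1, and NFKBIE and NFKBIZ dropped out with upper quartile scaling, where their intervals in MDA-MB-231 reached 1. NFKB1 and ICAM1 joined it with upper quartile scaling, so that the count stayed at 5, and NFKB1 and RELA joined with TMM within each line, which made 7. The pattern was also found in 4 of 64 further pathway genes tested in both lines, namely BIRC2, LTBR, SOD2 and TRAF2. It held for 3.49% of the 14262 genes tested in both lines. The reverse pattern was found in 3 of the 64, namely TLR4, IL1RAP and MAP3K3.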

How the results depend on the processing

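There was 1 library per condition, so no library could be left out, no replicate block could be fitted, and the control and CPYPP libraries were paired by line alone, in the common effect. Calls within a line rest on counting error. In MDA-MB-231 the count of the 10 genes past a fold of 2 stayed at 0 under the 4 other scalings, both filters, the interval rule and a fold of 4, and was 3 (RELB, BIRC3 and ICAM1, all lower) at a fold of 1.5. Of all 16441 genes tested there, 1853 were higher and 2173 lower at a fold of 1.5. In MDA-MB-435 the count of 2 became 1 with total counts, 1 when the whole interval had to pass 2, in both cases NFKBIA, and 0 at a fold of 4. Of all 16527 genes tested there, 497, 198 and 132 were higher under these settings, in that order. Between the controls the count of 3 became 8 at a fold of 1.5 and 0 at a fold of 4. Of all 18269 genes tested there, 11689 were past a fold of 1.5 and 4209 past a fold of 4. In the common effect the count of 0 became 1 with DESeq2 size factors, 2 with total counts and 1 with no filter beyond 1 count, and it was 0 with DESeq2's test, without the block, and with a fold over 2 added. Over all genes, 1703 were called with DESeq2 size factors, 1930 with total counts and 1896 with no filter beyond 1 count. The number of the 10 genes with an interval below 1 in MDA-MB-231 fell from 8 to 5 with upper quartile scaling, and the number above 1 in MDA-MB-435 ran from 5 with total counts to 9 with upper quartile scaling. The median log2 fold over all tested genes moved as well. It moved by 0.085 in MDA-MB-231 with upper quartile scaling, and in MDA-MB-435 by -0.099 with total counts and 0.082 with upper quartile scaling. Of 110 folds of the 10 genes recomputed under other scalings, 8 left their counting interval and 5 crossed 1, namely NFKB1, RELA and ICAM1 in MDA-MB-435 with total counts, TNFAIP3 in MDA-MB-231 with upper quartile scaling and NFKB1 between the controls with DESeq2 size factors. The cause of these shifts was not tested.

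Over all genes, counts past a fold of 2 in MDA-MB-231 went from 1761 to 2732 with no filter and to 758 with at least 10 counts in both libraries, and in MDA-MB-435 from 2360 to 1081 with the latter. The common effect called 1448 genes, 388 with a fold over 2 added and 0 without the block, where 161 passed an unadjusted p under 0.05. TMM within each line and the scalings of interval counts were chosen after seeing the data. The depth of the libraries limits genes near 10 counts, and the variation between cultures was not measured.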
